A study of Homo sapiens with 2 samples.

Results

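Antisense transcripts, RNAs read from the DNA strand opposite to a gene with which they share a locus, were compared between GLUT4-overexpressing and vector control FaDu cells. They were taken as the probe sets whose platform annotation names exactly 1 gene with a symbol that ends in AS and an optional number, such as INTS6-AS1. The rule gave 1097 of 54675 probe sets and 792 of 19775 genes. The sense gene, whose symbol is that of the antisense gene without the ending, was measured by a probe set of its own for 727 antisense genes. These pairs hold 703 distinct sense genes, since 22 of them are shared by 46 antisense genes, and 3 were found through an older symbol. The sense genes of the other 65 antisense genes were not analysed here. The annotation used gives no strand for a probe set, so the word antisense rests on the gene symbol.

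FaDu is a pharyngeal squamous carcinoma line that is grown in culture. GLUT4 cells had been infected with a lentivirus that carried the GLUT4 sequence, and vector cells with the control vector. Both populations were selected with puromycin, and 1 array of total RNA was made of each. A difference between these arrays therefore covers every way in which the selected populations differed, and it has no replicate check and no test.

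Antisense transcripts often start from the same open promoter region as a neighbouring gene and run away from it, or start inside or beyond a gene and run back across it. Some act on the sense gene, by recruiting chromatin factors, by blocking its transcription or by pairing with its RNA, and for most no function is known. Many stay in the nucleus at low abundance, where the RNA exosome, a complex of ribonucleases, degrades them soon after synthesis, and the Integrator complex cuts short the transcription of many of them.

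The values are intensities, each a brightness value that combines the probes of a probe set, on a linear scale. A difference is given on the log2 scale, as GLUT4 minus vector. A probe set is called higher or lower where it passed 1.5-fold in GLUT4 cells. A gene with several probe sets is given by the brightest of them on both arrays together. Intensities of different probe sets were compared to choose the brightest of a gene, to rank genes by brightness and to sort probe sets by signal. They were not read as amounts of one transcript against another. SLC2A4, which encodes GLUT4, had 32.6 in GLUT4 cells and 28.3 in vector cells, both under the median signal of the arrays, 39.3. Whether its probe set detects the introduced sequence was not determined here. The squamous keratins KRT5 and KRT14 had 13093 and 3985 in GLUT4 cells and 11024 and 1963 in vector cells, a difference of 0.25 for KRT5 and 1.02 for KRT14. The epithelial genes EPCAM and CDH1 were expressed on both arrays with lower values in GLUT4 cells, at 3021 and 2224 in GLUT4 cells and 5361 and 3223 in vector cells, differences of -0.83 and -0.54. Of the genes of other cell types, PTPRC (leukocytes) had 8.14 in GLUT4 cells and 8.30 in vector cells, PECAM1 (endothelium) had 48.2 in GLUT4 cells and 141 in vector cells, and COL1A1 and COL1A2 (fibroblasts) differed by 0.02 and 0.16. The part of these differences in the antisense values was not tested. The ratio of the end to the start of the ACTB transcript was 0.38 on the log2 scale in GLUT4 cells and 0.31 in vector cells, and that of GAPDH was 0.16 in GLUT4 cells and 0.13 in vector cells.

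The starts of 4 antisense genes with large differences are printed here as examples. Whether these sequences have any part in the differences was not tested. INTS6-AS1, SLC25A21-AS1 and ENO1-AS1 were among the antisense genes with the largest increases, and PAX8-AS1 had the largest decrease. Each sequence runs 5′ to 3′ on the strand of the antisense gene, with 250 bases before and 50 bases after the annotated start, from RefSeq on GRCh38.p14. Capitals mark the GC box, searched as GGGCGG and, for the other strand, CCGCCC, with overlapping matches counted. The INTS6-AS1 window is chr13:51453095-51453394 on the plus strand, that of SLC25A21-AS1 is chr14:37171776-37172075 on the plus strand, that of ENO1-AS1 is chr1:8878585-8878884 on the plus strand, and that of PAX8-AS1 is chr2:113235277-113235576 on the plus strand.
INTS6-AS1: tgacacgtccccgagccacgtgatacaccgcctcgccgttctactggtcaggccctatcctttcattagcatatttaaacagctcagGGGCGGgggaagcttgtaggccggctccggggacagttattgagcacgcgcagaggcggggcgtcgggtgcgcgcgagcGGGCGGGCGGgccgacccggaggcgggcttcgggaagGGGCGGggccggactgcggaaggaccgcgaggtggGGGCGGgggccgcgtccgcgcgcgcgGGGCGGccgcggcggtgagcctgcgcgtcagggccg
SLC25A21-AS1: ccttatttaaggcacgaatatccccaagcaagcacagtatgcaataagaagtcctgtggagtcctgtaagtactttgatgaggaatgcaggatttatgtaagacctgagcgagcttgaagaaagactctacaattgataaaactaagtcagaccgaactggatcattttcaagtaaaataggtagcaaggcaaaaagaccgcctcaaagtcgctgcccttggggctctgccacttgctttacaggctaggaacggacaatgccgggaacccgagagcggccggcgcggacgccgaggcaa
ENO1-AS1: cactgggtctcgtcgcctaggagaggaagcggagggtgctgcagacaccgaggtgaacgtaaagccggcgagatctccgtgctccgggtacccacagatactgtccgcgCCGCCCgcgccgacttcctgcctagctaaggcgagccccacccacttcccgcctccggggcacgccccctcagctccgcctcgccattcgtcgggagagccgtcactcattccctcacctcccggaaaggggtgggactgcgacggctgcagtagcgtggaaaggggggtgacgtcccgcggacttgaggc
PAX8-AS1: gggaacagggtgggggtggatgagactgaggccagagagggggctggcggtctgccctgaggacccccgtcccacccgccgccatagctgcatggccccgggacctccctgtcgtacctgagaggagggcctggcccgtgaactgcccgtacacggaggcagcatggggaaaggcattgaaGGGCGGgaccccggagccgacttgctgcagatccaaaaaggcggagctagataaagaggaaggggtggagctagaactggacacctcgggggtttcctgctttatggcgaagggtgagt

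The INTS6-AS1 window held 44 CpG dinucleotides and 6 GC boxes, of which 2 overlap, and the ENO1-AS1 window 31 CpG dinucleotides and 1 GC box. The SLC25A21-AS1 window held 14 CpG dinucleotides and no GC box, so the antisense genes with the largest increases did not share these features. The PAX8-AS1 window held 15 CpG dinucleotides and 1 GC box. RefSeq gave a start window for 592 of the 792 antisense genes. A GC box was found in 28 of the 44 windows of antisense genes higher in GLUT4 cells (63.6%), and in 90 of the 169 windows of antisense genes that were above the median signal and within 1.5-fold (53.3%). It was found in 42.9% of the windows of all antisense genes and in 44.6% of all 27305 RefSeq windows of this length. The median number of CpG dinucleotides was 22.5 in the windows of the higher antisense genes and 22 in those above the median signal within 1.5-fold, against 14.0 over all windows. The CCAAT box (CCAAT or ATTGG) was found in 25% of the windows of the higher antisense genes, in 30.8% of those above the median signal within 1.5-fold, in 33.1% of those of all antisense genes and in 35.7% of all windows. The TATA box (TATAAA or TTTATA) was found in 6.82% of the windows of the higher antisense genes, in 5.33% of those above the median signal within 1.5-fold, in 8.95% of those of all antisense genes and in 12% of all windows.

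Antisense probe sets past 1.5-fold were mostly higher in GLUT4 cells. Of 1097 antisense probe sets, 57 were higher (5.2%), against 2.04% of all probe sets on the array. In the other direction, 6 were lower (0.547%), against 1.22% of all probe sets. At 2-fold, 17 antisense probe sets were higher (1.55%), against 0.472% of all probe sets, and 2 were lower (0.182%), against 0.199%. The middle of the distribution did not move with them: the median difference was 0.00 over antisense probe sets and -0.01 over all probe sets. The other 1034 antisense probe sets were within 1.5-fold.

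**Figure D1:**
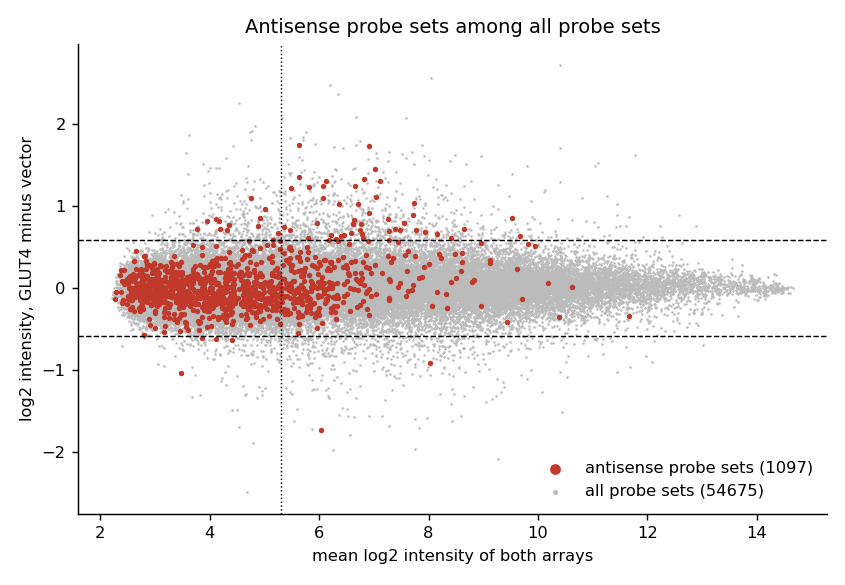
Difference between GLUT4 and vector cells in log2 intensity (vertical axis), plotted over the log2 intensity averaged across the arrays (horizontal axis). Red points are the 1097 antisense probe sets and grey points all 54675 probe sets, the dashed lines mark 1.5-fold and the dotted line the median signal. Above the median signal, 45 antisense probe sets lie over the upper dashed line and 2 under the lower one.

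The excess lay among the brighter antisense probe sets. Antisense probe sets were dim, with a median intensity of 20.6, against 39.3 over all probe sets. Of the 318 antisense probe sets above the median signal, 45 were higher in GLUT4 cells (14.2%), against 2.88% of all probe sets above it, and 2 were lower (0.629%), against 1.82%. The filter takes the mean of both arrays, and 6 of the 45, among them SLC25A21-AS1, FLRT2-AS1, ST7-AS1 and GTF2A1-AS1, passed it only through the GLUT4 array. Taking instead the probe sets above 39.7, the median of the vector array, left 39 of 311 antisense probe sets higher (12.5%, against 2.48% of all) and 2 lower (0.643%, against 1.97%), a count added after the values were seen. The median difference of the 318 was 0.07, against 0.00 over all probe sets above the median signal. Of the 779 antisense probe sets at or below the median signal, 12 were higher (1.54%), against 1.2% of all such probe sets. By bands of mean intensity, 13 of 181 antisense probe sets between 40 and 80 were higher (7.18%, against 3.21% of all in the band), 20 of 79 between 80 and 160 (25.3%, against 4.54%), 8 of 30 between 160 and 320 (26.7%, against 3.67%) and 4 of 26 above 320 (15.4%, against 1.48%). In the 2 bands below 40, the antisense share was 0.931% and 2.87%, against 0.722% and 2.24% of all probe sets. The bands also take the mean of both arrays, so a probe set can reach a band through its GLUT4 value. The same 6 probe sets lay between 40 and 80 in this way, with less than 40 in vector cells.

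**Figure D2:**
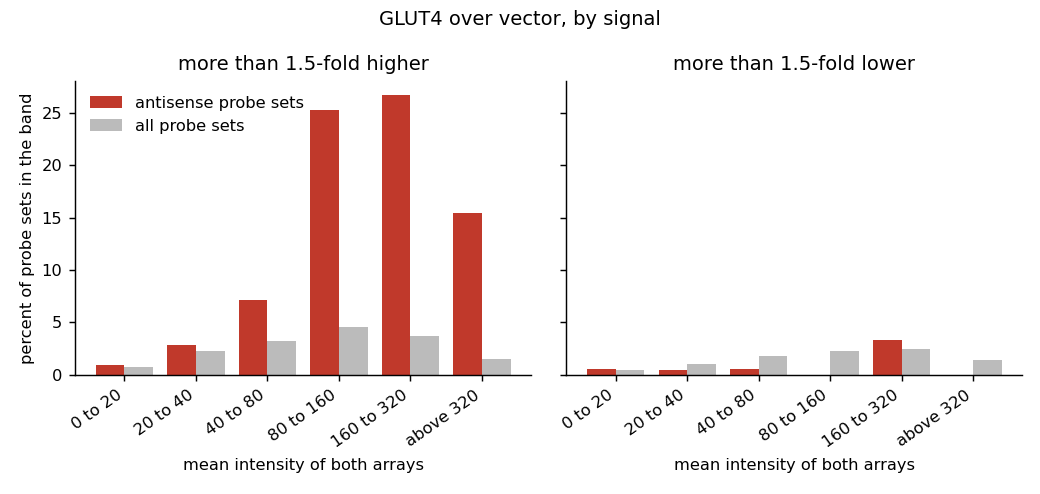
Percent of probe sets more than 1.5-fold higher (left) and lower (right) in GLUT4 cells, in bands of the mean intensity of both arrays. A probe set can therefore reach a band through its GLUT4 value. Red bars are antisense probe sets and grey bars all probe sets; the antisense share higher was 25.3% between 80 and 160, where it was 4.54% over all probe sets.

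Other classes of transcript were set beside the antisense ones above the median signal. Divergent transcripts, which carry the ending DT and start next to a coding gene on the other strand, had 17 of 108 probe sets above the median signal higher in GLUT4 cells (15.7%) and 2 lower (1.85%). Long intergenic RNAs with LINC symbols had 13 of 215 higher (6.05%) and 4 lower (1.86%). The probe sets of the sense genes themselves had 33 of 1019 higher (3.24%) and 37 lower (3.63%). The filter takes the mean of both arrays, so probe sets of each class could pass it through the GLUT4 array. No count above the median of the vector array was made for these classes. The differences between these shares were not tested.

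Counted by gene, 50 of 792 antisense genes were higher, against 1.84% of all genes, and 4 were lower, against 1.54%. Among the 266 antisense genes above the median signal, 42 were higher (15.8%), against 2.38% of all genes above it, and 2 were lower, PAX8-AS1 and NR2F1-AS1, against 1.99%. Of the 42, SLC25A21-AS1, FLRT2-AS1, ST7-AS1, GTF2A1-AS1, BRWD1-AS2 and BAZ2B-AS1 passed this filter only through the GLUT4 array.

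The largest increase was that of SLC25A21-AS1, at 91.3 in GLUT4 cells and 27.2 in vector cells, a difference of 1.75. SLC25A21 carries oxodicarboxylates across the inner mitochondrial membrane. Its own probe set had 52.0 in GLUT4 cells and 38.8 in vector cells, a difference of 0.42 that did not pass 1.5-fold.

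INTS6-AS1 was the antisense gene with the highest increase that a second probe set also showed. Its brighter probe set had 221 in GLUT4 cells and 66.2 in vector cells, a difference of 1.74, and its other probe set had 179 in GLUT4 cells and 71.7 in vector cells, a difference of 1.32. INTS6, a subunit of the Integrator complex, starts close by on the other strand and had 582 in GLUT4 cells and 747 in vector cells, a difference of -0.36. Both antisense probe sets thus passed 1.5-fold, and the sense gene stayed within it, on the same pair of arrays.

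EXOC3-AS1 had 214 in GLUT4 cells and 78.2 in vector cells, a difference of 1.45. EXOC3, a subunit of the exocyst that tethers secretory vesicles to the plasma membrane, had 752 in GLUT4 cells and 666 in vector cells. ENO1-AS1 had 111 in GLUT4 cells and 44.6 in vector cells, a difference of 1.31. It starts beside ENO1, which encodes the glycolytic enzyme enolase, and ENO1 differed by 0.04, with 11392 in GLUT4 cells and 11087 in vector cells. ST7-AS1 had 79.5 in GLUT4 cells and 31.0 in vector cells, a difference of 1.36; its sense gene was not analysed here. In these 3 genes the antisense intensity was over 2-fold higher, and neither measured sense gene passed 1.5-fold.

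STARD13-AS and IL6-AS1 were the antisense genes past 2-fold whose sense gene also passed 1.5-fold, in opposite directions. STARD13-AS had 217 in GLUT4 cells and 87.9 in vector cells, a difference of 1.30. STARD13 had 286 in GLUT4 cells and 513 in vector cells, a difference of -0.84. The gap of 2.14 between these differences was the largest on the antisense side among the 209 pairs with both probe sets above the median signal. A second, dim probe set of STARD13-AS had 19.6 in GLUT4 cells and 16.1 in vector cells, a difference of 0.28. IL6-AS1 had 154 in GLUT4 cells and 65.2 in vector cells, a difference of 1.24. IL6, the inflammatory cytokine, had 3776 in GLUT4 cells and 2239 in vector cells, a difference of 0.75, so both members of this pair were higher.

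ID2-AS1 had 104 in GLUT4 cells and 44.0 in vector cells, a difference of 1.24, while its second probe set stayed level, at 52.1 in GLUT4 cells and 51.5 in vector cells. ID2, an inhibitor of basic helix-loop-helix factors, had 418 in GLUT4 cells and 299 in vector cells, a difference of 0.48. GTF2A1-AS1 had 85.8 in GLUT4 cells and 36.7 in vector cells, a difference of 1.23. GTF2A1, a subunit of the general factor TFIIA, had 1529 in GLUT4 cells and 1560 in vector cells. ZNF674-AS1 had 98.2 in GLUT4 cells and 45.8 in vector cells, a difference of 1.10, and the probe set of ZNF674, a zinc finger gene, lay far below the median signal on both arrays, at 6.47 in GLUT4 cells and 6.45 in vector cells.

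FLRT2-AS1 had 68.0 in GLUT4 cells and 29.3 in vector cells, a difference of 1.22, and FLRT2, an adhesion receptor, differed by -0.06. ATP2B1-AS1 had 192 in GLUT4 cells and 89.2 in vector cells, a difference of 1.11, and ATP2B1, a calcium pump of the plasma membrane, differed by 0.17. DSP-AS1 had 149 in GLUT4 cells and 73.2 in vector cells, a difference of 1.03. DSP encodes desmoplakin, which anchors keratin filaments at desmosomes, and it differed by 0.16, with 3618 in GLUT4 cells and 3247 in vector cells. DNAAF3-AS1 had 118 in GLUT4 cells and 57.9 in vector cells, a difference of 1.02, and DNAAF3, an assembly factor of ciliary dynein arms, differed by -0.24. STK24-AS1, at 39.8 in GLUT4 cells and 18.5 in vector cells, was the dimmest of the antisense probe sets more than 2-fold higher and the only one of these at or below the median signal. STK24, a kinase, differed by -0.08.

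**Figure D3:**
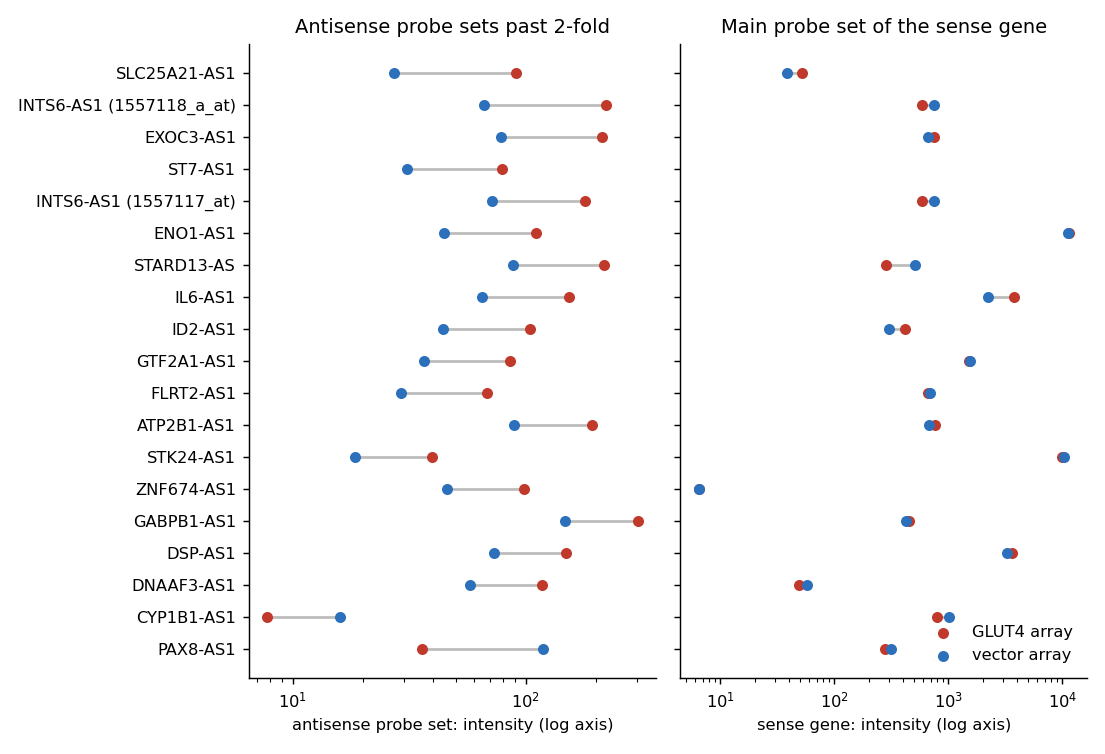
Intensity on the GLUT4 array (red) and the vector array (blue) of the 19 antisense probe sets past 2-fold (left) and of the main probe set of their sense gene (right), both on log axes. In 17 antisense probe sets the GLUT4 value is the higher; the sense values of most pairs nearly coincide, and ST7-AS1 has no sense value.

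A further 34 antisense genes were between 1.5-fold and 2-fold higher, with differences between 0.60 and 0.97, and 27 of them were above the median signal. ILRUN-AS1, beside a gene whose product inhibits immune signalling, had 288 in GLUT4 cells and 155 in vector cells, a difference of 0.89. RALY-AS1, beside the gene of an RNA-binding protein, had 132.95 in GLUT4 cells and 74.79 in vector cells, a difference of 0.83. PITPNA-AS1, beside the gene of a phosphatidylinositol transfer protein, had 512 in GLUT4 cells and 311 in vector cells, a difference of 0.72. Their sense genes had smaller differences, -0.22 for ILRUN, 0.10 for RALY and -0.23 for PITPNA. The highest of the 34, ZNF213-AS1, was dim, at 45.0 in GLUT4 cells and 23.0 in vector cells.

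PAX8-AS1 had the largest decrease, at 35.8 in GLUT4 cells and 119 in vector cells, a difference of -1.73. PAX8, a transcription factor of thyroid and kidney development, had 279 in GLUT4 cells and 316 in vector cells, a difference of -0.18. The other probe sets of PAX8-AS1 were both dim and did not follow, with differences of 0.41 and -0.10. NR2F1-AS1 had 190 in GLUT4 cells and 357 in vector cells, a difference of -0.91. NR2F1, an orphan nuclear receptor, had 54.5 in GLUT4 cells and 96.7 in vector cells, a difference of -0.83, which made this the one pair with both members lower. The other probe sets of NR2F1-AS1, at or below the median signal, had differences of -0.27 and -0.45.

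The remaining lower antisense probe sets were all dim. One probe set of CYP1B1-AS1 had 7.76 in GLUT4 cells and 16.0 in vector cells, a difference of -1.04, but the brighter probe set of the same gene had 34.96 in GLUT4 cells and 35.13 in vector cells. NKX2-1-AS1 had 13.9 in GLUT4 cells and 21.5 in vector cells. FAM222A-AS1 had 11.7 in GLUT4 cells and 17.9 in vector cells. One of 3 probe sets of DSG2-AS1 had 17.1 in GLUT4 cells and 26.6 in vector cells.

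Probe sets of the same antisense gene often gave different values. Of 61 antisense genes with any probe set past 1.5-fold, 20 had several probe sets, 54 in all. Of these, 22 passed 1.5-fold and 32 did not, and 26 of the 32 differed in the same direction as the probe set that passed. Some of the 26 differences were very small, such as 0.004 for a probe set of WDFY3-AS2 and 0.016 for one of ID2-AS1. Of the 32, 21 lay at or below the median signal. INTS6-AS1 and C10orf95-AS1 had a pair of probe sets that both passed. GABPB1-AS1 had 303 in GLUT4 cells and 148 in vector cells on its brightest probe set, a difference of 1.03, while its other 5 ranged between -0.47 and 0.05, among them a bright one with 195 in GLUT4 cells and 200 in vector cells. GABPB1 itself, a subunit of the GA-binding protein, differed by 0.08. MAPKAPK5-AS1 had 1087, 1021 and 601 in GLUT4 cells and 749, 657 and 412 in vector cells on its 3 brightest probe sets. Only the one with 1021 and 657, a difference of 0.64, passed 1.5-fold. Its remaining probe set, also above the median signal, had 114 in GLUT4 cells and 111 in vector cells, a difference of 0.04. DICER1-AS1, beside the gene of the ribonuclease that matures miRNAs, had 165 in GLUT4 cells and 87.8 in vector cells on one probe set while its other probe set had 11.8 in GLUT4 cells and 11.3 in vector cells. SPEN-AS1 had differences of 0.69, 0.17 and 0.16, and the probe sets at 0.17 and 0.16 were dim. Over the 218 antisense genes with several probe sets, the SD of a single probe set, estimated from how far apart paired probe sets of a gene lay, was 0.26 on the log2 scale. It was 0.20 over 10523 genes of all kinds.

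**Figure D4:**
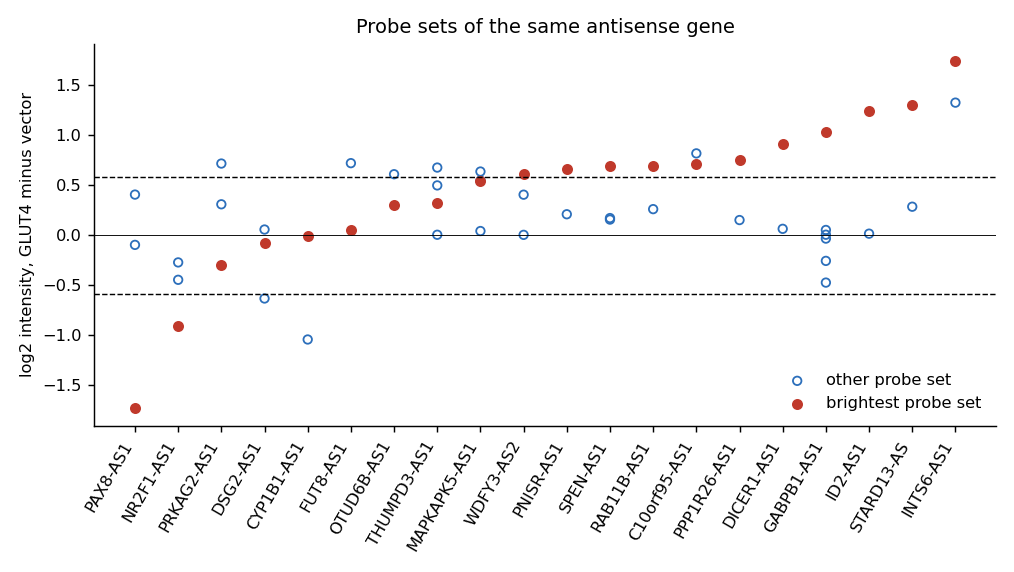
Difference between GLUT4 and vector cells in log2 intensity for every probe set of the 20 antisense genes that have several probe sets with at least 1 past 1.5-fold (dashed lines). Red points are the brightest probe set of a gene and open circles its others; INTS6-AS1 has both over the upper line, and the 5 open circles of GABPB1-AS1 lie between -0.47 and 0.05.

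The sense genes did not share the shift of their antisense partners. Over 703 sense genes, 11 were higher (1.56%) and 20 lower (2.84%), against 1.84% and 1.54% of all genes, with a median difference of -0.03. In the 48 pairs whose antisense gene was higher, 46 sense genes were within 1.5-fold, 1 was higher (IL6) and 1 was lower (STARD13). The median difference in these pairs was 0.79 for the antisense gene and 0.01 for the sense gene. The pairs were picked by the antisense difference, so its median is high by choice and the gap is not a result. Of the sense genes, 28 had a difference above 0 and 20 below it. The antisense difference exceeded the sense difference in 419 of 727 pairs (57.6%) and in 140 of the 209 pairs with both above the median signal (67.0%). Across pairs, the differences correlated with a Pearson r of 0.06 and a Spearman coefficient of 0.03 (727 pairs), and of 0.08 and 0.06 over the 209 brighter pairs. All pairs come from the same 2 arrays. Some antisense genes of the 209 brighter pairs, such as SLC25A21-AS1, FLRT2-AS1 and GTF2A1-AS1, passed the signal filter only through the GLUT4 array.

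**Figure D5:**
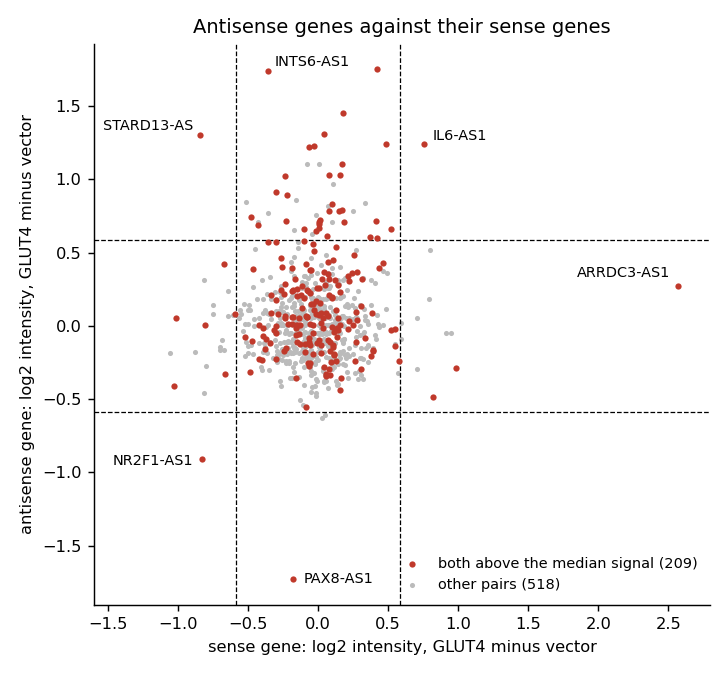
Difference between GLUT4 and vector cells in log2 intensity of each antisense gene (vertical axis) against that of its sense gene (horizontal axis). Red points are the 209 pairs with both above the median signal, grey points the other 518 pairs, and dashed lines mark 1.5-fold; most points over the upper line lie between the vertical lines, and ARRDC3-AS1 lies far to the right with an antisense difference of 0.27.

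Of the 12 pairs whose sense gene was higher, 1 had a higher antisense gene (8.33%), against 6.31% of all antisense genes. Of the 22 pairs whose sense gene was lower, 1 had a lower antisense gene (4.55%), against 0.505% of all antisense genes. With 1 pair in each direction, nothing is read from these shares. ARRDC3, an arrestin-domain protein, had 640 in GLUT4 cells and 108 in vector cells, a difference of 2.57. Its partner ARRDC3-AS1 had 143 in GLUT4 cells and 118 in vector cells, a difference of 0.27. CARD8, which encodes an inflammasome sensor, had 168 in GLUT4 cells and 85.1 in vector cells, a difference of 0.98, while CARD8-AS1 had 71.1 in GLUT4 cells and 87.0 in vector cells, a difference of -0.29. SLC38A4, an amino acid transporter, had 254 in GLUT4 cells and 144 in vector cells, and SLC38A4-AS1 had 52.5 in GLUT4 cells and 73.6 in vector cells. CIRBP, the cold-inducible RNA-binding protein, had 3070 in GLUT4 cells and 2060 in vector cells, a difference of 0.58 just within 1.5-fold, and CIRBP-AS1 had 59.2 in GLUT4 cells and 69.8 in vector cells. These 4 pairs thus had gaps opposite in sign to that of STARD13-AS.

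Among pairs with a lower sense gene, the antisense differences were smaller in size than the sense differences in the 3 given here. HSD11B1, the enzyme that regenerates active glucocorticoid, had 65.4 in GLUT4 cells and 134 in vector cells, a difference of -1.03, and HSD11B1-AS1 had 598 in GLUT4 cells and 794 in vector cells, a difference of -0.41 within 1.5-fold. FZD10, a Wnt receptor, had 89.98 in GLUT4 cells and 182 in vector cells, a difference of -1.01, while FZD10-AS1 had 75.5 in GLUT4 cells and 72.6 in vector cells. SOX9, a developmental transcription factor, had 180 in GLUT4 cells and 376 in vector cells, a difference of -1.06, and SOX9-AS1 lay below the median signal, at 22.4 in GLUT4 cells and 25.5 in vector cells.

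Of the 46 antisense genes that share a sense gene, none was past 1.5-fold on its brightest probe set, against 6.31% higher and 0.505% lower over all antisense genes. Of the 46, 6 were above the median signal, where 15.8% of antisense genes were higher. So small a number would hold few calls at that share, and nothing is read from the count. Their differences lay between -0.36 and 0.42. The highest was ZNF503-AS2, with 47.4 in GLUT4 cells and 35.3 in vector cells. ZNF503-AS1, of the same locus, had 26.4 in GLUT4 cells and 29.6 in vector cells, and ZNF503, a zinc finger repressor, had 180 in GLUT4 cells and 286 in vector cells, a difference of -0.67. NAV2, a gene of neurite outgrowth, had 3 antisense genes with differences of -0.16, 0.01 and -0.23, beside -0.26 for NAV2 itself.

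The arrangement of both genes could be classed for 477 pairs from RefSeq starts and strands. Pairs that start within 2 kb of each other and run apart on opposite strands numbered 69, and 10 of their antisense genes were higher (14.5%). Pairs that overlap on opposite strands numbered 396, with 28 antisense genes higher (7.07%) and 4 lower. In the 250 pairs that could not be classed, 8 were higher (3.2%). Over all antisense genes, 6.31% were higher and 0.505% lower. With the antisense gene above the median signal, the shares higher were 7 of 36 in the diverging pairs (19.4%) and 26 of 132 in the overlapping ones (19.7%). The share was 6 of 69 in the unclassed pairs (8.7%) and 15.8% over all antisense genes above it. Of the overlapping kind, SLC25A21-AS1, FLRT2-AS1 and GTF2A1-AS1 passed this filter only through the GLUT4 array. INTS6-AS1, ENO1-AS1, ID2-AS1, STK24-AS1, ZNF674-AS1 and DICER1-AS1 were of the diverging kind, and SLC25A21-AS1, STARD13-AS, IL6-AS1 and PAX8-AS1 of the overlapping kind.

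Grouped by what the sense gene does, higher antisense genes were found in every class that was formed. Some antisense genes were placed in no class, and the share over all 266 given below includes them. Among antisense genes above the median signal, 11 of 39 next to genes of chromatin, RNA processing and DNA repair were higher (28.2%), among them INTS6-AS1, GTF2A1-AS1, DICER1-AS1, SPEN-AS1 and ASH1L-AS1, whose sense gene, not analysed here, encodes a histone methyltransferase. ASH1L-AS1 was the brightest of the higher antisense genes, with 992 in GLUT4 cells and 548 in vector cells, a difference of 0.86. Next to genes of metabolism and transport, 7 of 32 were higher (21.9%), with SLC25A21-AS1, ENO1-AS1, ATP2B1-AS1 and PITPNA-AS1 among them. Next to genes of the cytoskeleton, adhesion and matrix, 4 of 22 were higher (18.2%), with DSP-AS1, FLRT2-AS1 and LOXL1-AS1. Next to transcription factors, 7 of 40 were higher (17.5%) and 2 lower, next to genes of protein turnover and trafficking 4 of 23 (17.4%), and next to immune genes 2 of 14 (14.3%), IL6-AS1 and ILRUN-AS1. Next to signalling genes, 1 of 23 was higher (4.35%), STARD13-AS. The share over all 266 antisense genes above the median signal was 15.8%, and the differences between classes were not tested. The filter takes the mean of both arrays. GTF2A1-AS1, BRWD1-AS2 and BAZ2B-AS1 of the chromatin class, SLC25A21-AS1 of metabolism and FLRT2-AS1 of adhesion passed it only through the GLUT4 array.

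Of 66 listed antisense RNAs with a described function, 42 were measured. Of these, 4 were higher (9.52%, against 6.31% of all antisense genes and 1.84% of all genes), none was lower, and the median difference was 0.00. Above the median signal, 4 of 21 were higher (19.0%, against 15.8% of all antisense genes). ST7-AS1 was one of the 4, and it passed the signal filter only through the GLUT4 array. LOXL1-AS1 had 205 in GLUT4 cells and 115 in vector cells, a difference of 0.84; LOXL1 is a collagen crosslinking enzyme. FOXP4-AS1 had 358 in GLUT4 cells and 226 in vector cells, a difference of 0.66. ZEB1-AS1 had 105 in GLUT4 cells and 67.7 in vector cells, a difference of 0.63, and ZEB1, a driver of epithelial-mesenchymal transition, was below the median signal, at 20.6 in GLUT4 cells and 21.3 in vector cells. In these 3 pairs the sense gene stayed within 1.5-fold. Of the bright listed RNAs that were within 1.5-fold, THAP9-AS1 had 794 in GLUT4 cells and 872 in vector cells, NNT-AS1 had 469 in GLUT4 cells and 439 in vector cells, and SLC16A1-AS1 had 298 in GLUT4 cells and 355 in vector cells.

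The 5 brightest antisense genes stayed within 1.5-fold. EPB41L4A-AS1, a snoRNA host transcript, had 2877 in GLUT4 cells and 3632 in vector cells, a difference of -0.34. With the mean over all its probe sets, the difference of EPB41L4A-AS1 was -0.06. FGD5-AS1 had 1581 in GLUT4 cells and 1570 in vector cells. OIP5-AS1, a cytoplasmic RNA also known as cyrano, had 1186 in GLUT4 cells and 1520 in vector cells, a difference of -0.36. WAC-AS1 had 1186 in GLUT4 cells and 1142 in vector cells. PRR34-AS1 had the largest difference of the 5 at 0.51, with 1175 in GLUT4 cells and 825 in vector cells, and it was not past the threshold either.

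Genes of the machinery that removes such transcripts were looked at on their brightest probe sets. Of 26 measured genes of the nuclear RNA exosome and its adaptors, none passed 1.5-fold in either direction, with a median difference of 0.04 and a range between -0.54 and 0.41. Of 16 Integrator genes none passed, with a median of 0.09 and a range between -0.36 and 0.24, and INTS6 was the lowest of them. Of 6 RNAs listed as retained in the nucleus, 4 were measured: KCNQ1OT1, MALAT1, MEG3 and TUG1. Of their 33 probe sets, none was higher and 1 was lower, a probe set of MALAT1 with 105 in GLUT4 cells and 212 in vector cells. The other 11 probe sets of MALAT1 were within 1.5-fold. Over all genes, 1.84% were higher and 1.54% lower, and over all probe sets 2.04% and 1.22%. Lists of this size would hold few calls at these shares, and nothing is read from the counts. Whether these genes had any part in the antisense values was not tested.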

How the data were processed

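Total RNA of GLUT4-overexpressing and vector control FaDu cells was measured with 1 Affymetrix Human Genome U133 Plus array each, after labelling from the end of the transcript. Normalization with GeneSpring is stated in the methods, while MAS5 stands, unversioned, in the submitters' processing notes. The way both were joined is not stated in the sources. The authors deposited linear intensities, already normalized between the arrays, with medians of 39.1 in GLUT4 cells and 39.7 in vector cells. Detection calls were not used. The number of arrays limits the precision.

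Values under 1 were raised to 1, log2 was taken, and vector was subtracted from GLUT4. Of 54675 probe sets, 41097 name 1 gene, 1801 name several and 11777 are unnamed. Of those naming several, 23 include an antisense name and were left out. The 1.5-fold threshold is that of the methods. Older symbols were matched through RefSeq (GRCh38.p14), whose table held 788 of the 792 antisense genes. The members and lists were chosen with earlier results of these data known, and sense genes were sorted into classes by hand after the annotation was read. The text names every antisense gene past 2-fold, the 10 largest differences in each direction above the median signal (2 were lower), the 5 brightest, examples from the genes with several probe sets, from the described antisense RNAs and from the sense genes past 1.5-fold, and pairs with the largest gaps. ASH1L-AS1, PITPNA-AS1, ILRUN-AS1, RALY-AS1, ZNF213-AS1, LOXL1-AS1, ZEB1-AS1, the ZNF503 and NAV2 antisense genes, NKX2-1-AS1 and FAM222A-AS1 were chosen after their values were seen.

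Alternatives were a 2-fold threshold, the mean over all probe sets of a gene, dropping probe sets with the endings x_at or s_at, only probe sets above the median signal, an added offset of 32, a loess fit (fraction 0.3), quantile normalization and equal medians. The counting was tested on simulated data. The software was matplotlib 3.10.9, statsmodels 0.14.6, scipy 1.17.1, pandas 2.3.3 and numpy 2.4.6 under Python 3.11.15.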

Additional observations from a re-analysis of the deposited data

How the results depend on the processing

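With an offset of 32 added to both arrays, 31 antisense probe sets were higher (2.83%, against 0.872% of all probe sets) and 2 lower, and 29 antisense genes were higher and 2 lower. At 2-fold, 17 probe sets were higher and 2 lower. With only probe sets above the median signal, 2 probe sets and 2 genes were lower, and the antisense difference exceeded the sense difference in 140 pairs, since 209 pairs remained. With the mean over all probe sets of a gene, 2 genes were lower, and 9 of the 54 antisense genes past 1.5-fold fell within it, among them GABPB1-AS1 at 0.05, PAX8-AS1 at -0.47, NR2F1-AS1 at -0.54 and DICER1-AS1 at 0.49. The offset of 32 brought 23 of the 54 within 1.5-fold, among them STK24-AS1 at 0.51. None of the 54 antisense genes past 1.5-fold changed direction under the alternatives run. Genes within 1.5-fold did so, with FGD5-AS1 at -0.01 under the loess fit, CYP1B1-AS1 at 0.03 under it and PRKAG2-AS1 at 0.24 with the mean over all probe sets, against -0.29 on its brightest one. Equal medians, quantile normalization and the loess fit gave between 60 and 64 probe sets higher and 5 lower. No paired analysis was possible because each group has 1 array, and none could be left out. With only probe sets above the median of the vector array, an alternative chosen after seeing the data, 39 antisense probe sets were higher and 2 lower. With 1 array per group there is no replicate check, and 779 of 1097 antisense probe sets lie at or below the median signal.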
